A study of Mus musculus with 9 samples.

Results

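The genes described here are 6 genes of neurotrophin signalling: the ligand gene Bdnf, the receptor genes Ntrk2, Ntrk3 and Ngfr, the sorting receptor gene Sort1, and Vgf, a secreted-protein gene induced by neurotrophins. They were chosen by gene symbol, and all 6 were found among the 14351 genes of the table of hypothalamic RNA sequencing. RNA was taken from the hypothalamus of male whole body Clic1 knockout (KO) mice and their WT littermates on normal chow, with 1 library per mouse, 5 KO (replicates 2, 4, 6, 8 and 10) and 4 WT (replicates 1, 3, 9 and 11). The KO mice lack Clic1, a chloride intracellular channel gene, in every tissue and throughout life, so effects arising in the hypothalamus and elsewhere in the body cannot be told apart. The labels give the strain as C57b/6J and the study's methods give a CD-1 background, and an age was not given for these mice.

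Replicate 10 stands apart and has conflicting labels. Its description names it K10, whereas its title and treatment label say WT. It was placed with the KO mice by its description, and the main results are also given without it and, where they differ, with it as WT. Its Clic1 level was 1.43 normalized CPM (reads scaled to the size of the library). The remaining KO libraries had 0.733 to 1.93 CPM of Clic1, and the WT libraries 3.58 to 5.52 CPM. Its median Spearman correlation over genes with the other libraries was 0.974, against a lowest value of 0.989 among pairs of the other 8. The total reads estimated from the steps between low values were 5.47 to 7.71 M in the other KO libraries, 7.28 to 11 M in WT libraries and 20.8 M in replicate 10. A protocol label names adipose tissue, but genes that define hypothalamic nuclei were measured: Sim1 of the paraventricular nucleus at 35.3 ± 5.01 CPM in KO mice against 37.1 ± 5.02 CPM in WT mice, and Nr5a1 of the ventromedial nucleus at 14.0 ± 1.68 CPM and 13.4 ± 1.51 CPM (SD, n = 5 and 4).

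Neurotrophins are secreted proteins that keep neurons alive and adjust their synapses. The BDNF precursor is cleaved to a mature form that binds the tyrosine kinase receptor TrkB, encoded by Ntrk2, and drives the Ras-MAPK, PI3K-Akt and phospholipase C pathways. The uncut precursors bind instead to p75NTR, encoded by Ngfr, together with sortilin, encoded by Sort1, and neurotrophin 3 binds TrkC, encoded by Ntrk3. In the hypothalamus BDNF and TrkB restrain food intake: mice and people with reduced BDNF or TrkB overeat and become obese. Vgf is induced by neurotrophins and encodes a precursor that neuroendocrine cells cut into several peptides with effects on energy balance.

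Of the 6 genes, 0 differed between KO and WT mice at an adjusted p under 0.05 in limma, where 0.286% of all 14351 genes did, and 0 of 6 had an unadjusted p under 0.05, against 6.5% of all genes. All 6 log2 differences were below 0, from -0.23 for Bdnf to -0.01 for Vgf, with a median of -0.09. The median of all genes was 0.00, and 49.6% of genes were below 0. The common sign depended on single libraries: Vgf was above 0 without KO replicate 8, KO replicate 10, WT replicate 1 or WT replicate 11. Of the 6 genes, 4 were below 0 without KO replicate 10 (50.7% of all genes) and 2 with replicate 10 as WT (50.3% of all genes). In both groupings 0 of 6 passed the adjusted threshold in limma (0.606% and 0.0348% of all genes), and 1 of 6, Bdnf, had an unadjusted p under 0.05. The KO and WT libraries overlapped for each of the 6 genes, while 3.41% of all genes showed no overlap. Log2 differences are KO minus WT on log2(CPM + 0.1).

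**Figure D1:**
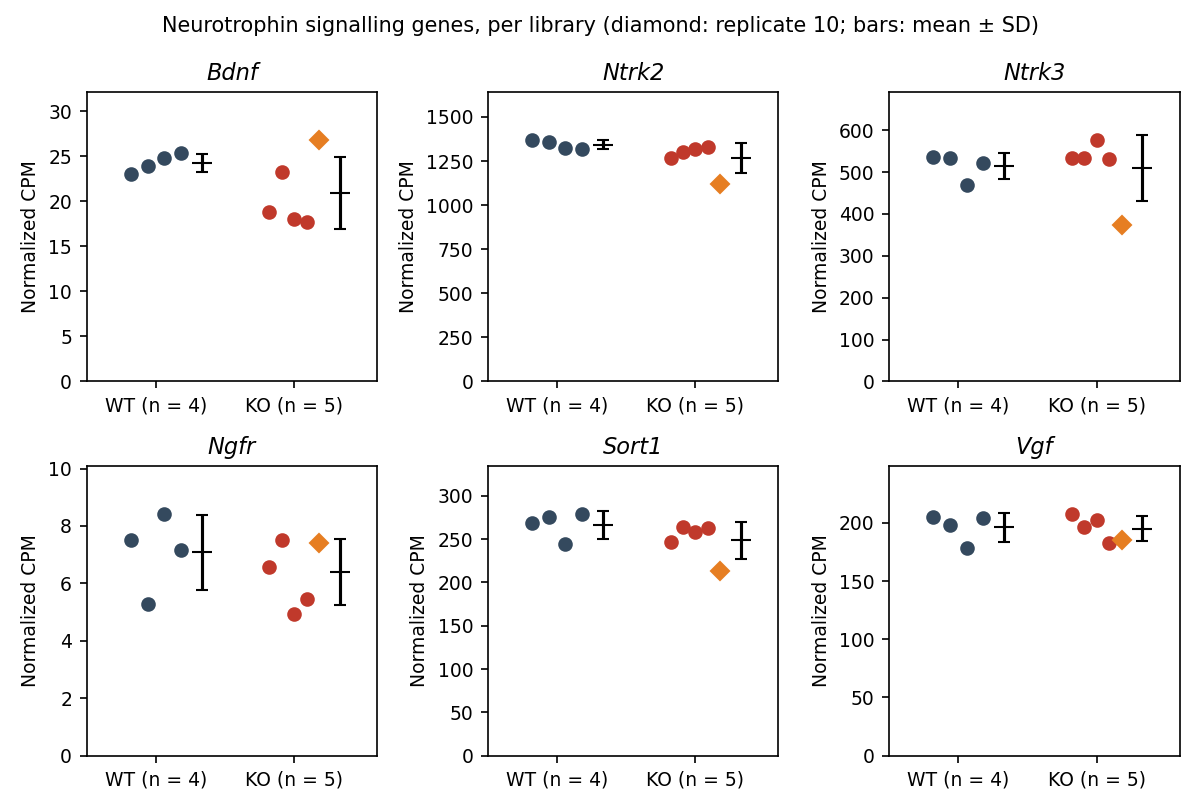
Normalized CPM (vertical axes, from 0) of each gene in each library of WT (n = 4) and Clic1 KO (n = 5) mice. Circles are libraries, the diamond is KO replicate 10, and bars are the mean ± SD. KO and WT libraries overlap in every panel, and replicate 10 is the highest KO library for Bdnf and the lowest for Ntrk2, Ntrk3 and Sort1.

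Bdnf (ENSMUSG00000048482) lies on the plus strand of GRCm38 at chr2:109674700-109727007. Its transcripts start at several places along the gene, and transcription from the start of exon IV follows neuronal activity. The RefSeq table holds 7 start windows for Bdnf on GRCm38.p6, each with 250 bases before and 50 after a start, 1 for Ntrk2 and 1 for Ngfr. The calcium- and cAMP-responsive letters TCACGTCA, read on both strands, are in 1 of the 7 Bdnf windows, in neither of the others, and in 0.441% of 32851 windows of all genes. The palindromic form TGACGTCA, which differs from it by a single letter and so cannot match at the same place, is in 1.79% of all windows and in none of the windows of the 3 genes. The match begins 38 bases before the start in exon IV's window. The 100 bases before that start, on the plus strand at chr2:109692336-109692435, are shown with those letters in capitals because the CPM of Bdnf sums RNA from this start and from the others.
Bdnf, before exon IV: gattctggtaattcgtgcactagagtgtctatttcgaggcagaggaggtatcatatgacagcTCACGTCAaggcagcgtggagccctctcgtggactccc
The match is a description of these letters, and how much of the Bdnf signal came from each start was not measured here.

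Bdnf was at 18.8, 23.2, 18.1, 17.7 and 26.8 CPM in KO replicates 2, 4, 6, 8 and 10, and at 23.1, 23.9, 24.8 and 25.3 CPM in WT replicates 1, 3, 9 and 11. The WT libraries lay close together, 3 of the 5 KO libraries were below all of them, and replicate 10 was above all of them. The mean was 20.9 ± 3.95 CPM in KO (SD, n = 5) and 24.3 ± 1.004 CPM in WT mice (SD, n = 4). The log2 difference was -0.23 (standard error 0.13, 95% interval -0.51 to 0.04), with an adjusted p of 0.803 from limma and p = 0.175 in the two-sided exact permutation test. No test of this kind can go below 0.0159 with 5 mice against 4. Without replicate 10 the KO mean was 19.5 ± 2.54 CPM and the log2 difference -0.33 (95% interval -0.53 to -0.12), which had an unadjusted p of 0.00448 and an adjusted p of 0.204 in limma, and p = 0.0571 in the exact permutation test. With replicate 10 as WT it was -0.35 (95% interval -0.57 to -0.14, adjusted p = 0.552 from limma). In both of these groupings the interval lay below 0, but the difference did not pass the correction over all genes. Of all genes, 10.5% and 6.65% had an unadjusted p under 0.05 in these groupings. An estimated 99 to 541 reads stood behind each Bdnf value, and 99 reads alone give a counting error of 10.1%.

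**Figure D2:**
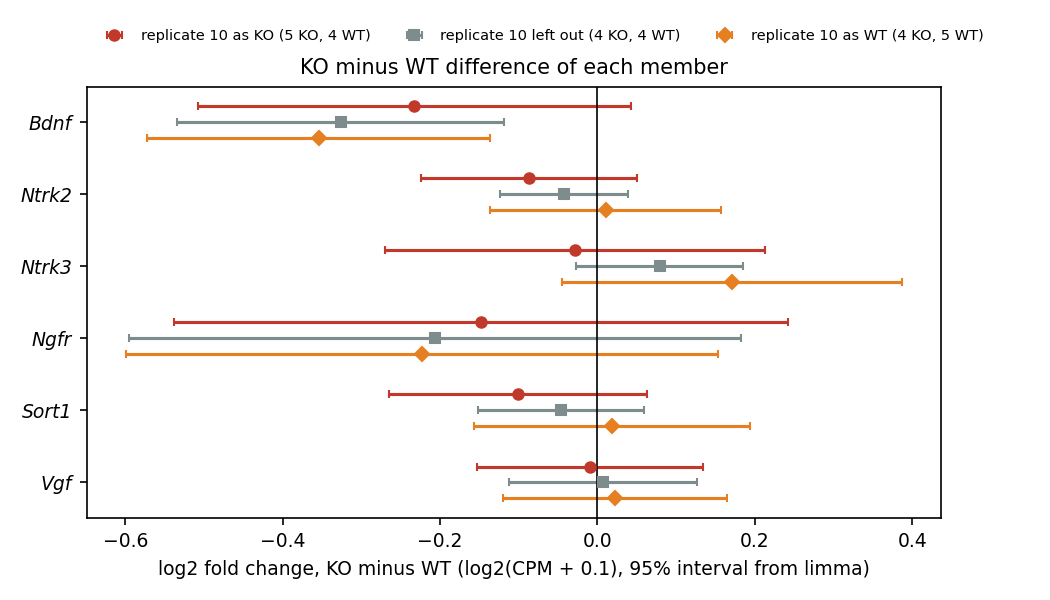
Log2 difference of KO minus WT (horizontal axis, log2(CPM + 0.1)) with its 95% interval from limma for each gene, with replicate 10 as KO (circles), left out (squares) or as WT (diamonds). The interval for Bdnf reaches from -0.51 to 0.04 with replicate 10 as KO and from -0.53 to -0.12 without it, while the intervals of the other 5 genes include 0 in each grouping.

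Ntrk2 (ENSMUSG00000055254, plus strand, chr13:58806569-59133970) encodes TrkB, the BDNF receptor, as a full-length kinase and as truncated forms without the kinase that astrocytes also make. Ntrk2 was at 1266, 1304, 1317, 1327 and 1118 CPM in KO replicates 2, 4, 6, 8 and 10, and at 1368, 1359, 1323 and 1319 CPM in WT replicates 1, 3, 9 and 11. Of the KO libraries, 4 of 5 were below all WT libraries, replicate 6 by little, and KO replicate 8 lay inside the WT range. The mean was 1267 ± 86.1 CPM in KO (SD, n = 5) and 1342 ± 24.9 CPM in WT mice (SD, n = 4), a log2 difference of -0.09 (standard error 0.06, 95% interval -0.22 to 0.05, adjusted p = 0.857 from limma), with p = 0.0635 in the exact permutation test. Without replicate 10, the lowest library, it was -0.04 (95% interval -0.12 to 0.04). The CPM is summed over transcripts, so a shift between the kinase and the truncated forms would not be seen.

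Ntrk3 (ENSMUSG00000059146, minus strand, chr7:78175959-78738012) encodes TrkC, the receptor of neurotrophin 3. Ntrk3 was at 533, 534, 576, 531 and 374 CPM in KO replicates 2, 4, 6, 8 and 10, and at 535, 533, 470 and 523 CPM in WT replicates 1, 3, 9 and 11. Replicate 10 was far below the other KO libraries, and WT replicate 9 was the lowest of its group. The mean was 509.8 ± 78.2 CPM in KO (SD, n = 5) and 515 ± 30.9 CPM in WT mice (SD, n = 4), with a log2 difference of -0.03 (standard error 0.11, 95% interval -0.27 to 0.21, adjusted p = 0.974 from limma; exact permutation test, p = 0.984). Without replicate 10 the sign turned, to 0.08 (95% interval -0.03 to 0.19, adjusted p = 0.624 from limma), and with replicate 10 as WT it was 0.17 (95% interval -0.04 to 0.39, adjusted p = 0.768 from limma).

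Ngfr (ENSMUSG00000000120, minus strand, chr11:95568818-95587735) encodes p75NTR, which binds every neurotrophin and their precursors. Ngfr was at 6.57, 7.51, 4.95, 5.47 and 7.42 CPM in KO replicates 2, 4, 6, 8 and 10, and at 7.51, 5.28, 8.40 and 7.16 CPM in WT replicates 1, 3, 9 and 11. High and low values occurred in both groups. The mean was 6.38 ± 1.15 CPM in KO (SD, n = 5) and 7.09 ± 1.31 CPM in WT mice (SD, n = 4), with a log2 difference of -0.15 (standard error 0.18, 95% interval -0.54 to 0.24, adjusted p = 0.898 from limma; exact permutation test, p = 0.413). Without replicate 10 it was -0.21 (95% interval -0.60 to 0.18). Between 27 and 150 estimated reads stood behind each value, where counting alone gives an error of 19.2% at 27 reads and 8.16% at 150. The coefficient of variation was 18% among KO libraries and 18.5% among WT libraries, whose reads were 51 to 84. How much of this spread came from depth was not tested. Among basal forebrain cholinergic neurons, which carry much p75NTR, the marker genes measured were 3 of 6 and summed to 2.97 to 6.72 CPM over KO mice against 4.80 to 6.42 CPM over WT mice.

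Sort1 (ENSMUSG00000068747, plus strand, chr3:108284082-108361511) encodes sortilin, which carries the BDNF precursor to regulated secretion and pairs with p75NTR at the membrane. Sort1 was at 246, 264, 259, 263 and 213 CPM in KO replicates 2, 4, 6, 8 and 10, and at 268, 276, 244 and 279 CPM in WT replicates 1, 3, 9 and 11. All 5 KO libraries were below the WT mean, but only replicate 10 was below the lowest WT library. The mean was 248.9 ± 21.2 CPM in KO (SD, n = 5) and 266.5 ± 15.7 CPM in WT mice (SD, n = 4), with a log2 difference of -0.10 (standard error 0.08, 95% interval -0.27 to 0.06, adjusted p = 0.857 from limma; exact permutation test, p = 0.222). Without replicate 10 it was -0.05 (95% interval -0.15 to 0.06).

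Vgf (ENSMUSG00000037428, plus strand, chr5:137026392-137033351) encodes the VGF precursor, the source of peptides such as TLQP-21. Vgf was at 207, 197, 203, 182 and 186 CPM in KO replicates 2, 4, 6, 8 and 10, and at 205, 198, 178 and 204 CPM in WT replicates 1, 3, 9 and 11. The groups covered nearly the same range. The mean was 194.9 ± 10.7 CPM in KO (SD, n = 5) and 196 ± 12.5 CPM in WT mice (SD, n = 4), with a log2 difference of -0.01 (standard error 0.07, 95% interval -0.15 to 0.13, adjusted p = 0.987 from limma; exact permutation test, p = 0.937). Without replicate 10 it was 0.01 (95% interval -0.11 to 0.13).

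Per kb of the longest coding transcript, the level of Ntrk2 was the highest of the 6, at 145 ± 9.84 CPM per kb in KO and 154 ± 2.85 in WT mice. Vgf followed at 68.8 ± 3.77 and 69.3 ± 4.40 CPM per kb, Sort1 at 36.4 ± 3.10 and 39.0 ± 2.30, and Ntrk3 at 25.9 ± 3.97 and 26.1 ± 1.57. Bdnf was at 4.90 ± 0.925 and 5.69 ± 0.235 CPM per kb, and the receptor Ngfr was lowest at 1.85 ± 0.333 and 2.06 ± 0.38 (SD, n = 5 and 4). The ranges of neighbouring genes in this order did not overlap over the 9 libraries. The order depends on the transcript length used, since coding transcripts run from 423 to 19703 nt for Ntrk3, from 581 to 2834 nt for Vgf and from 2284 to 8744 nt for Ntrk2. On this scale Ntrk2 was above Bdnf and Ngfr in every library. In bulk tissue, fewer cells of a type and less RNA per cell cannot be told apart.

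Ratios within a library do not depend on how the libraries were scaled. The log2 ratio of Ngfr to Ntrk2 was -7.63 ± 0.33 in KO and -7.57 ± 0.30 in WT mice, and the exact permutation test gave p = 0.857. The ratio of Ntrk3 to Ntrk2 was -1.33 ± 0.15 and -1.38 ± 0.07 (p = 0.476, exact permutation test). Without replicate 10 this ratio was higher in KO mice by 0.12 on the log2 scale (exact permutation test, p = 0.0286, adjusted over the 4 ratios 0.114), and with replicate 10 as WT by 0.16 (exact permutation test, p = 0.0159, adjusted 0.0635). Both unadjusted values are the smallest the test can give, with 4 mice against 4 and with 5 against 4. A single ratio at that limit cannot pass 0.05 after adjustment over 4, so the adjusted values cannot decide about this ratio. The ratio of Sort1 to Ngfr was 5.28 ± 0.35 and 5.23 ± 0.35 (p = 0.952, exact permutation test). The ratio of Vgf to Bdnf was 3.23 ± 0.29 in KO and 3.01 ± 0.13 in WT mice, with p = 0.206 in the exact permutation test. It was higher in KO mice by 0.33 without replicate 10 (exact permutation test, p = 0.0571, adjusted 0.114) and by 0.38 with it as WT (exact permutation test, p = 0.0318, adjusted 0.0635). The difference in the ratio of Ngfr to Ntrk2 was -0.06 with replicate 10 as KO, -0.16 without it and -0.23 with it as WT, and that of Sort1 to Ngfr 0.05, 0.16 and 0.24 (exact permutation tests, adjusted p of 0.333 to 0.571 in the last 2 groupings). With replicate 10 as KO, adjusted over these 4 ratios, the p-values were 0.825 to 0.952 (exact permutation tests with Benjamini-Hochberg adjustment).

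The rest of the pathway was followed in lists of 142 genes in all, of which 134 were in the table. In limma, 0 of the 134 passed the threshold, and 7 had an unadjusted p under 0.05, 2 higher (3.44% of all genes were) and 5 lower in KO mice (3.07% of all genes), a share of 5.22% against the 6.5% of all genes. Without replicate 10 it was 3 higher and 8 lower (5.57% and 4.96% of all genes), and with it as WT 1 higher and 3 lower (3.69% and 2.97%), with 0 past the adjusted threshold in either. The ligand genes Ntf3 and Ntf5 were not analysed here. Nradd, a relative of p75NTR, was at 1.53 ± 0.346 CPM in KO mice against 1.37 ± 0.294 CPM in WT mice. Of the 5 genes of the sortilin family, 0 had an unadjusted p under 0.05 in limma, and their log2 differences ran from -0.10 for Sort1 to 0.04 for Sorcs2, with -0.03 for Sorl1.

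**Figure D3:**
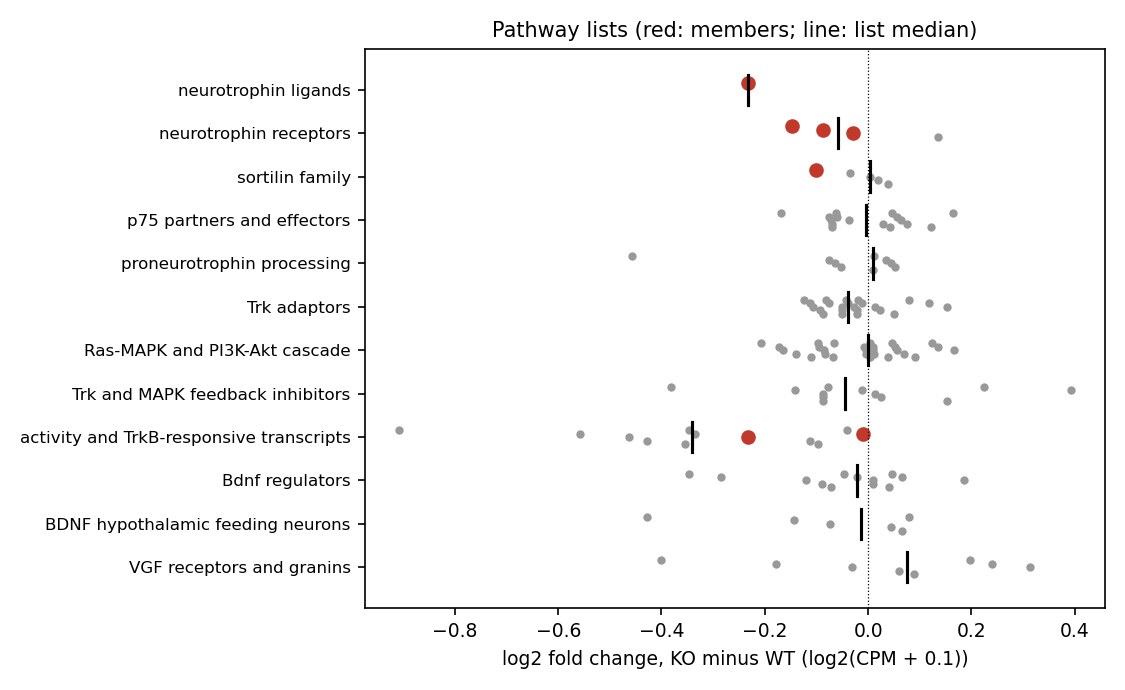
Log2 difference of KO minus WT (horizontal axis, log2(CPM + 0.1)) of each measured gene in 12 lists of the neurotrophin pathway. Red points are genes of the 6, grey points are other genes, and the line is the list median. The medians lie between -0.06 and 0.07 except for the ligand list, which holds only Bdnf at -0.23, and the activity and TrkB-responsive transcripts at -0.34.

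Among 9 measured enzymes of precursor processing, 0 had an unadjusted p under 0.05 in limma. Mmp9, a protease that can cut the BDNF precursor outside the cell, was at 2.06 ± 0.493 CPM in KO mice against 2.84 ± 0.573 CPM in WT mice (log2 difference -0.46, unadjusted p = 0.0843 from limma), and Plat, tissue plasminogen activator, had a log2 difference of -0.08. Furin and Pcsk1, which cut precursors inside the cell, had log2 differences of 0.04 and -0.05, which were 0.09 and -0.08 without replicate 10. Of 16 partners and effectors of p75NTR, 8 were below 0 and 8 above. Irak1, a kinase downstream of p75NTR, was at 82.9 ± 3.93 CPM in KO mice against 76.2 ± 1.85 CPM in WT mice, with each KO library above each WT library (log2 difference 0.12, unadjusted p = 0.0719, adjusted p = 0.788 from limma). It was the only gene of the 16 without overlap, and 3.41% of all genes showed none in either direction. Bex3, a p75NTR-binding protein gene, had a log2 difference of 0.16, which was 0.07 without replicate 10 and -0.04 with it as WT.

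Of 23 Trk adaptor genes, 0 had an unadjusted p under 0.05 in limma, and their log2 differences were from -0.12 to 0.15. Plcg1, the phospholipase that binds active Trk receptors, was at 0.12 (unadjusted p = 0.0948 from limma) and Shc2 at 0.15. Without replicate 10 these were 0.08 and 0.10, and both were 0.02 with it as WT. The 28 genes of the Ras-MAPK and PI3K-Akt cascade had a median log2 difference of 0.00, with 14 on either side of 0 and 0 with an unadjusted p under 0.05 in limma. Pik3r2, a regulatory subunit of PI3K, was at 0.17 and Nras at -0.16. Without replicate 10 these were 0.15 and -0.09, and with it as WT 0.11 and 0.00.

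Of 12 feedback inhibitors of Trk and MAPK signalling, 1 had an unadjusted p under 0.05 in limma, as did 6.5% of all genes. This was Spry2, a Sprouty gene, at 20.7 ± 2.30 CPM in KO mice against 17.6 ± 0.821 CPM in WT mice (log2 difference 0.22, unadjusted p = 0.046, adjusted p = 0.759 from limma). Its relative Spry4 was at -0.38 (unadjusted p = 0.0647 from limma). Replicate 10 was the highest KO library for Spry2. Without it the log2 difference of Spry2 was 0.17 (unadjusted p = 0.0879 from limma) and with it as WT 0.08 (unadjusted p = 0.513 from limma). Spry4 was at -0.25 and -0.07 in these groupings.

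Transcripts that follow neuronal activity and TrkB signalling had lower means in KO mice, with 0 past the adjusted threshold in limma. Of 12 measured, which include Bdnf and Vgf themselves, 12 had a log2 difference below 0 (49.6% of all genes did), with a median of -0.34, 5 had an unadjusted p under 0.05 and were lower (3.07% of all genes), and 0 passed the adjusted threshold in limma. Egr1, an immediate early transcription factor gene, was at 38.8 ± 11.4 CPM in KO mice against 55.2 ± 1.99 CPM in WT mice (log2 difference -0.56, unadjusted p = 0.00789, adjusted p = 0.506 from limma). Fos was at 9.14, 16.7, 3.66, 9.70 and 9.10 CPM in KO replicates 2, 4, 6, 8 and 10, and at 17.7, 16.2, 16.9 and 15.01 CPM in WT replicates 1, 3, 9 and 11 (log2 difference -0.91, adjusted p = 0.622 from limma). The others with an unadjusted p under 0.05 were Egr3 at -0.43, Fosb at -0.46 and Junb at -0.35. In KO replicate 6, Fos, Egr3 and Fosb were at 3.66, 4.58 and 3.11 CPM. A single read stood for 0.183 CPM in that library, so few reads stood behind these values. Without replicate 10, 11 of 12 were below 0 (50.7% of all genes) with a median of -0.26. With it as WT, 11 of 12 were below 0 (50.3% of all genes) with a median of -0.16. In these groupings Egr1 was at -0.43 and -0.23 and Fos at -0.92 and -0.76. Of the 12, 4 and 1 were lower at an unadjusted p under 0.05 in limma (4.96% and 2.97% of all genes). These genes are induced together by activity and are not independent of each other.

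Bdnf and Fos were low in the same KO libraries with an exception. KO replicate 4, whose Bdnf of 23.2 CPM lay within the WT range, also had Fos at 16.7 CPM and Egr1 at 55.4 CPM, both inside the WT ranges. KO replicates 2, 6 and 8 had Bdnf of 17.7 to 18.8 CPM with Fos of 3.66 to 9.70 CPM and Egr1 of 29.9 to 43.0 CPM, below the WT libraries. Replicate 10 went the other way, with the highest Bdnf of all 9 libraries and the lowest Egr1, at 26.7 CPM. Other genes of the list were divided. Egr3, Junb and Nr4a1 were also inside the WT ranges in KO replicate 4. Npas4 and Fosb were below all WT libraries in KO replicate 4, at 10.9 and 4.61 CPM. In KO replicate 2 these 2 genes were inside the WT ranges, at 17.8 and 5.92 CPM. These are values of 5 mice, with no test of the relation. Arc, which is translated at active synapses, had a log2 difference of -0.11. Of its 5 KO libraries, 3 were below all WT libraries, and KO replicate 4 was above all of them, at 19.5 CPM.

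**Figure D4:**
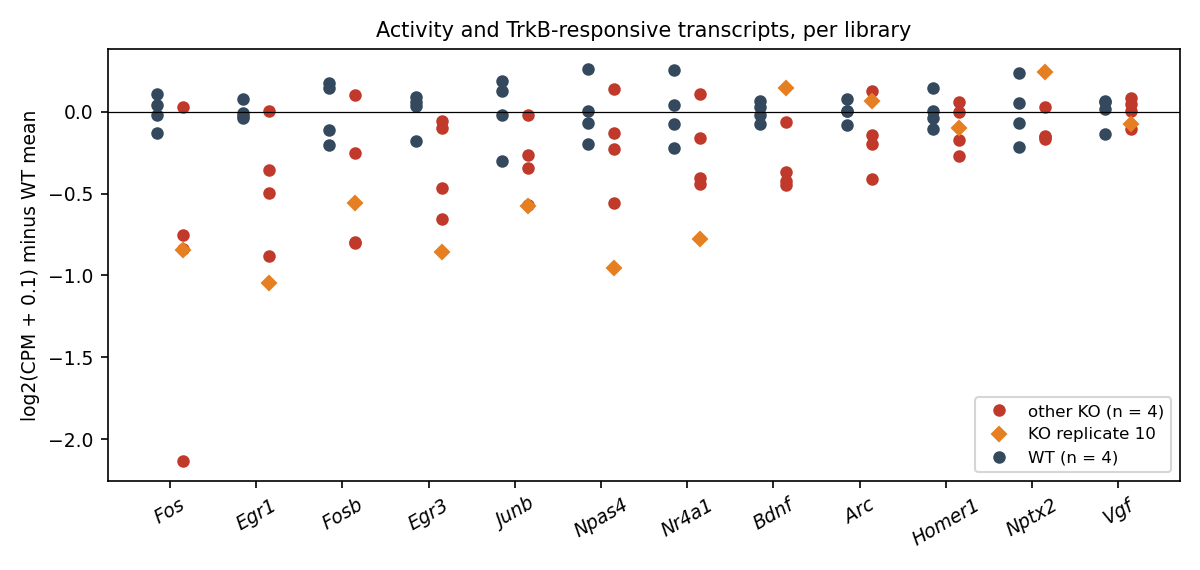
Difference of log2(CPM + 0.1) from the WT mean (vertical axis) for the 12 activity and TrkB-responsive transcripts, per library. Dark circles are WT (n = 4), red circles the other KO libraries (n = 4) and diamonds KO replicate 10. Most KO points of Fos, Egr1, Fosb, Egr3 and Junb lie below the WT points, while Homer1, Nptx2 and Vgf are mixed.

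Of 13 regulators of Bdnf transcription, 0 had an unadjusted p under 0.05 in limma. Camk4, a kinase that activates CREB, was at 0.19 and Npas4, an activity-induced transcription factor gene, at -0.35 (log2 differences, unadjusted p of 0.0903 and 0.101 from limma). Without replicate 10 Camk4 was at 0.13 and Npas4 at -0.20, and with it as WT they were at 0.04 and 0.00. Among 6 genes of the hypothalamic neurons through which BDNF limits feeding, Mc4r, the melanocortin receptor gene upstream of BDNF, was at 2.44 ± 0.357 CPM in KO mice against 3.36 ± 0.761 CPM in WT mice (log2 difference -0.43, unadjusted p = 0.0688, adjusted p = 0.788 from limma). A single read stood for 0.0495 to 0.183 CPM over the libraries, so few reads stood behind the Mc4r values. Fezf1 of the ventromedial nucleus, a site of Bdnf expression, was at -0.14 and Nr5a1 at 0.07. Without replicate 10 these were -0.10 and 0.14, and with it as WT -0.04 and 0.18.

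The list of VGF receptors and granins, proteins of the same dense-core vesicles as VGF, held 8 genes. Of these, 1 had an unadjusted p under 0.05 in limma, as did 6.5% of all genes. Scg2, the secretogranin II gene, was at 867 ± 109.9 CPM in KO mice against 731 ± 43.0 CPM in WT mice, with a log2 difference of 0.24 (unadjusted p = 0.017, adjusted p = 0.648 from limma). Its KO libraries from 780.5 CPM upwards narrowly did not overlap with WT libraries up to 780.4 CPM, where 3.41% of all genes showed no overlap. Pcsk1n, the proSAAS gene, was at 0.31 (unadjusted p = 0.0893 from limma). Replicate 10 was the highest KO library for both, and without it the log2 differences were 0.17 and 0.14. With it as WT they were 0.06 and -0.06. Chga, the chromogranin A gene, named after its values were seen, was at -0.18 with 4 of 5 KO libraries below all WT libraries, and at -0.27 without replicate 10 (unadjusted p = 0.0033, adjusted p = 0.182 from limma). Of the 8 genes, 3 were below 0 with replicate 10 as KO, 5 without it and 7 with it as WT.

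The gene profiles most like each of the 6 were taken over the 9 libraries from the 12072 genes whose mean reached 5 CPM, by the root mean square (RMS) difference of log2 values around each gene's mean. For Bdnf these were Ndufa9 (RMS 0.0857), C1galt1c1 (0.0914) and Atox1 (0.0989), while the profile of Bdnf itself had an RMS of 0.211 around its mean. For Ntrk2 they were Fam171b (RMS 0.0222), Smap1 (0.0232) and Ap1s2 (0.0245). For Ntrk3 they were Rbfox2 (RMS 0.0362), Zfp280d (0.0384) and Unc5d (0.0409). For Ngfr they were Tnip1 (RMS 0.101), Snrpg (0.103) and Anxa6 (0.121). For Sort1 they were Ubxn7 (RMS 0.0208), Fbxo7 (0.0261) and Gnaq (0.0286), and for Vgf they included Rtel1 (RMS 0.0291) and Mon2 (0.0378). Within the 6, the closest pair was Ntrk2 and Sort1 (RMS 0.0528), and the pair farthest apart was Ntrk3 and Ngfr (0.368). This measure also depends on each gene's own RMS around its mean: 0.082 for Ntrk2, 0.112 for Sort1, 0.172 for Ntrk3 and 0.25 for Ngfr. Among all genes compared, Sort1 ranked 178 in closeness to Ntrk2, and Ntrk2 ranked 127 in closeness to Sort1. All profiles share the same 9 libraries, replicate 10 among them.

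Cell type and region markers were summed per library to describe the tissue in each group. Oligodendrocyte markers summed to 3481 to 3943 CPM over KO mice against 3709 to 4550 CPM over WT mice, astrocyte markers, which mark cells that make truncated TrkB, to 4453 to 4771 and 4159 to 4649 CPM, and microglial markers to 136 to 159.9 and 148 to 184 CPM. Slc1a2 made up most of the astrocyte sum, at 2738 to 3053 and 2604 to 2927 CPM. Of the 6 astrocyte genes, 3 were below 0 (49.6% of all genes), and 5 without replicate 10 (50.7% of all genes). In the same 2 groupings, 5 and 6 of the 6 oligodendrocyte genes and 5 and 5 of the 6 microglial genes were below 0. Of the 6 endothelial genes, 0 were below 0 in these groupings, and 1 with replicate 10 as WT. Markers of the ventromedial nucleus summed to 432 to 507 CPM over KO mice against 505 to 549 CPM over WT mice. Slc17a6 made up most of this sum, at 342 to 387 and 397 to 421 CPM. Of the 6 ventromedial genes 4 were below 0 and 2, Nr5a1 and Nkx2-1, above. Markers of the arcuate nucleus summed to 119 to 187 and 114 to 176 CPM. Those of the paraventricular nucleus summed to 348 to 393 CPM over KO libraries and 273 to 279.8 CPM over WT libraries, and Avp carried this gap, since the other 5 summed to 120.9 to 193 and 154 to 177 CPM. Of these lists and those of cortex and hippocampus, thalamus, striatum, basal forebrain, endothelium, meninges, tanycytes and ependyma, choroid plexus and pituitary, 1 of 79 measured genes (1.27%, against 0.286% of all genes) passed the threshold in limma, Avp of the paraventricular list. Meningeal markers ran from 79.1 to 358 CPM over KO and from 92.6 to 199.7 CPM over WT libraries, with KO replicates 6 and 10 below each WT library, endothelial markers ran from 189 to 213 CPM and 174 to 181 CPM, and pituitary markers from 5.25 to 16.3 and 12.02 to 27.0 CPM. The cortical markers Slc17a7 and Emx1 were not analysed here, and the measured cortex and hippocampus markers summed to 10.6 to 16.7 CPM over KO mice against 11.2 to 16.1 CPM over WT mice. The part of these differences in the values of Bdnf and the activity transcripts was not tested.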

How the data were processed

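Hypothalamic RNA of 9 mice was sequenced. Per the study's methods and processing notes, the authors trimmed reads with Trimmomatic 0.38, aligned them to GRCm38.p6 with STAR 2.5.1a, estimated gene counts with RSEM 1.3.0 (Ensembl release 98), removed genes without a CPM of at least 1 in at least 5 samples, and scaled by TMM in edgeR. The deposited signal is normalized CPM. Strand was not given in the sources used here. Bdnf and Sort1 each overlap an exon of 1 antisense gene (Gm45346 and Gm12523). A table of the authors' fold changes and p-values was used only for gene symbols, and 1 column that matched no sample was not used.

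The study fitted limma-voom to counts with condition as the only term. Only normalized values are held here, so limma 3.58.1 in R 4.3.3, with an intensity trend and the same single term, was fitted to log2(CPM + 0.1), and p-values were adjusted by Benjamini-Hochberg across the 14351 genes (threshold 0.05). Two-sided exact permutation tests were run in scipy 1.17.1. Reads were estimated from the value of 1 read. Between 81.0% and 86.5% of values under 2.5 CPM were whole reads within 0.03 reads, so the totals are approximate and no count test was run. Positions and transcript lengths came from GENCODE mouse release 21 (GRCm38), and start windows from RefSeq (GRCm38.p6), which matched 3 of the 6 genes. On simulated data with 200 of 14351 genes changed, the fit recovered 40% of log2 changes of 0.5 and 78% of changes of 1, with 3 and 9 false calls. The simulated noise was independent between genes and equal in all libraries. It held no library that stands apart as replicate 10 does, so these rates may not carry over to the real data. The members, lists and rules were chosen with earlier results of these data known. Genes named were the 6 members, Clic1, the ligands and receptors, any list gene past the threshold, the 2 with the smallest p in each list and the nearest profiles; others named were chosen after their values were seen. A few genes that this rule names are not reported here. P-values measure the spread between mice of 1 series.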

Additional observations from a re-analysis of the deposited data

Results flagged for a closer look

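Over 20 groups of values tested (the 6 genes and 4 ratios in each genotype), 2 had a library far from the others of its group, where chance gives about 1 in 20. Ntrk3 in KO replicate 10 was at 374 CPM, and the remaining KO mice ranged from 531 to 576 CPM. The log2 ratio of Ntrk3 to Ntrk2 in WT replicate 9 was -1.49 against -1.35 to -1.33 in the other WT libraries.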

How the results depend on the processing

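In limma, 0 of the 6 genes and 0 of the 134 pathway genes passed the threshold in each of the 17 alternative fits (pseudocount, scaling, low-value filter, variance model, sample weights, replicate 10 as WT, each mouse left out). The smallest adjusted p of a member in them was 0.204. Of 102 member comparisons, 92 kept their sign, among them all of Bdnf (-0.35 to -0.18) and Ngfr (-0.28 to -0.06). With replicate 10 as WT, Ntrk2 was at 0.0103, Ntrk3 at 0.171, Sort1 at 0.018 and Vgf at 0.0227. With sample weights Ntrk3 was at 0.037. As each mouse was left out, Ntrk3 ran from -0.0767 to 0.0791 (highest without KO replicate 10) and Vgf from -0.0555 to 0.0137. Over the same fits, the log2 difference in the ratio of Ngfr to Ntrk2 ran from -0.1999 to 0.0391, and that of Sort1 to Ngfr from -0.0822 to 0.196; both turned sign without KO replicate 6, KO replicate 8 or WT replicate 9. The cause was not tested. Fits with replicate 10 left out or as WT, counted for the activity transcripts, were chosen after seeing the data. No paired analysis was possible because the groups share no replicate number. Among the 6 genes, depth limits Ngfr and Bdnf most. Mc4r, Mmp9 and Nradd of the pathway lists had lower levels than Ngfr and so rest on fewer reads.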
